A study of Mus musculus with 8 samples.

Results

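The collagen genes were the 44 genes, of 22180 with a single annotated symbol, whose symbol joins Col, a type number, a and a chain number. Each was read by its probe set with the highest mean signal over the 8 arrays, which left out a second probe set for 3 of the genes. By the structures their proteins build, 11 were fibrillar, 6 belonged to the basement membrane network (type IV), 6 to type VI and 9 to the fibril-associated group (FACIT). A further 3 encode the network-forming types VIII and X, 2 the multiplexins XV and XVIII, 4 the transmembrane types XIII, XVII, XXIII and XXV, and the remaining 3 the types VII, XXVI and XXVIII.

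Collagens are trimers of chains wound into a triple helix, and connective-tissue fibroblasts are their main makers. Types I, III and V assemble into cross-banded fibrils, on whose surface FACIT collagens such as type XII sit. Type VI forms beaded filaments around cells from an α1, an α2 and an α3 chain, and type IV forms the sheet of basement membranes. Chains are hydroxylated and folded in the endoplasmic reticulum, secreted, trimmed at their ends and cross-linked outside the cell, and transforming growth factor beta (TGF-beta) is a classical inducer of the fibrillar genes.

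The arrays came from mouse embryonic fibroblasts (MEFs), labelled as primary, that all lacked endogenous STING, the adaptor through which DNA sensed in the cytosol by cGAS induces interferons. The cells carried the empty vector pBabe, hSTING (wild-type STING in the series' design text), the mutant N154S, there called a SAVI mutant after an autoinflammatory disease, or the variant R284S. Every line gave 1 control array and 1 array 9 h after transfection with double-stranded DNA (dsDNA) by Lipofectamine 2000, so there were 8 groups of 1 array and no replicates. The sources used here do not say whether control cells received the reagent without DNA or what drove the construct. Each line was a single cell population, so a difference between lines includes any other difference between those populations.

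All signals are on the deposited log2 scale, where a difference of 1 is a 2-fold change. Lines were compared in a limma fit over all 22180 genes with line and dsDNA as additive terms, and a gene was called where its p adjusted by Benjamini-Hochberg over all genes was below 0.05. The residual of this fit is the unevenness of the dsDNA response between lines together with noise, so its errors do not measure the spread of replicate cultures. The median over the named genes lay between 4.42 and 4.47 on the 8 arrays, and any 2 arrays correlated across probe sets with a Pearson's r of 0.973 to 0.989. The probe set of Sting1, the deleted gene, read between 3.68 and 4.22 and does not check the labels, since it is not known to lie in the deleted part. Of 6 interferon-induced genes looked at for the labels, 5 were called higher than in vector cells in N154S, 5 in R284S and 2 in hSTING cells. Of all genes, 0.708%, 1.02% and 0.0992% were called higher there. The fitted differences of all 6 were 3.91 to 5.87 in N154S, 3.65 to 5.87 in R284S and 3.68 to 5.15 in hSTING cells. In vector cells all 6 also read higher with dsDNA, from Rsad2 (5.28 without and 5.68 with it) to Ifit1 (3.94 and 7.35). Of 9 fibroblast markers 8 were measured, and all 8 lay above the array median on every array. The marker lists of other cell types were mixed. On every array, 2 of 6 leukocyte markers lay at or above the median (Cd68 between 5.77 and 6.52 and Cd14 between 4.91 and 6.20), while Ptprc read between 2.48 and 2.67 and Adgre1 between 2.43 and 2.93. So did 1 of 5 epithelial markers (Krt8, between 4.77 and 5.32, with Epcam between 2.24 and 2.58), 1 of 6 cartilage markers (Sox9, between 6.24 and 6.74, with Acan between 3.26 and 3.70), 1 of 5 bone markers (Alpl, between 4.58 and 4.74) and 0 of 5 endothelial markers. In these lists 0 markers were called between any lines.

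Of the 44 collagen genes, 26 were at or above the array median on all 8 arrays, 12 were below it on all 8 and 6 were mixed. The 12 dim genes, among them Col14a1, Col19a1, Col4a3, Col4a4, Col4a6 and Col6a5, moved by -0.50 to 0.18 between R284S and vector cells. Their signals do not show whether they were expressed. A probe's brightness depends on its sequence, so levels of different collagen genes were not ranked.

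Several collagen genes fell in the N154S and R284S lines, and among them those for the main type VI chains and for type III differed most. In N154S against vector cells 7 of the 44 fell and 0 rose, where 0.609% of all genes tested fell and 0.708% rose. In R284S against vector cells 9 fell and 0 rose, where 1.02% of all genes fell and 1.02% rose. The genes that fell in N154S cells were Col3a1, Col1a1, Col5a1, Col6a1, Col6a2, Col6a3 and Col12a1, and in R284S cells these and also Col4a1 and Col8a1 passed. Both comparisons use the same 2 vector arrays. The median difference over the 44 genes was -0.12 for N154S and -0.16 for R284S, beside 0.01 over all genes in both, so most collagen genes moved little. For hSTING against vector cells 0 collagen genes passed, where 0.0992% of all genes rose and 0 fell. At an unadjusted p under 0.05 there were 7 collagen genes, all lower, a share of 15.9% beside 9.28% of all genes. Fewer collagen-making cells in a culture and less collagen RNA per cell cannot be told apart in such samples. By class, 3 fibrillar, 3 type VI and 1 FACIT gene fell in N154S cells, and in R284S cells 3 fibrillar, 3 type VI, 1 basement membrane, 1 FACIT and 1 network gene. The class medians against vector cells in N154S and R284S were -0.71 and -1.03 for type VI, -0.31 and -0.43 for the fibrillar, -0.29 and -0.17 for the basement membrane and -0.03 and -0.19 for the FACIT genes. For the multiplexins they were -0.18 and -0.11 and for the transmembrane genes 0.02 and -0.06. Differences between classes were not tested, and each class also holds genes near or below the array median. The R284S count became 5 without the N154S arrays, when Col12a1, Col4a1, Col5a1 and Col8a1 no longer passed.

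**Figure D1:**
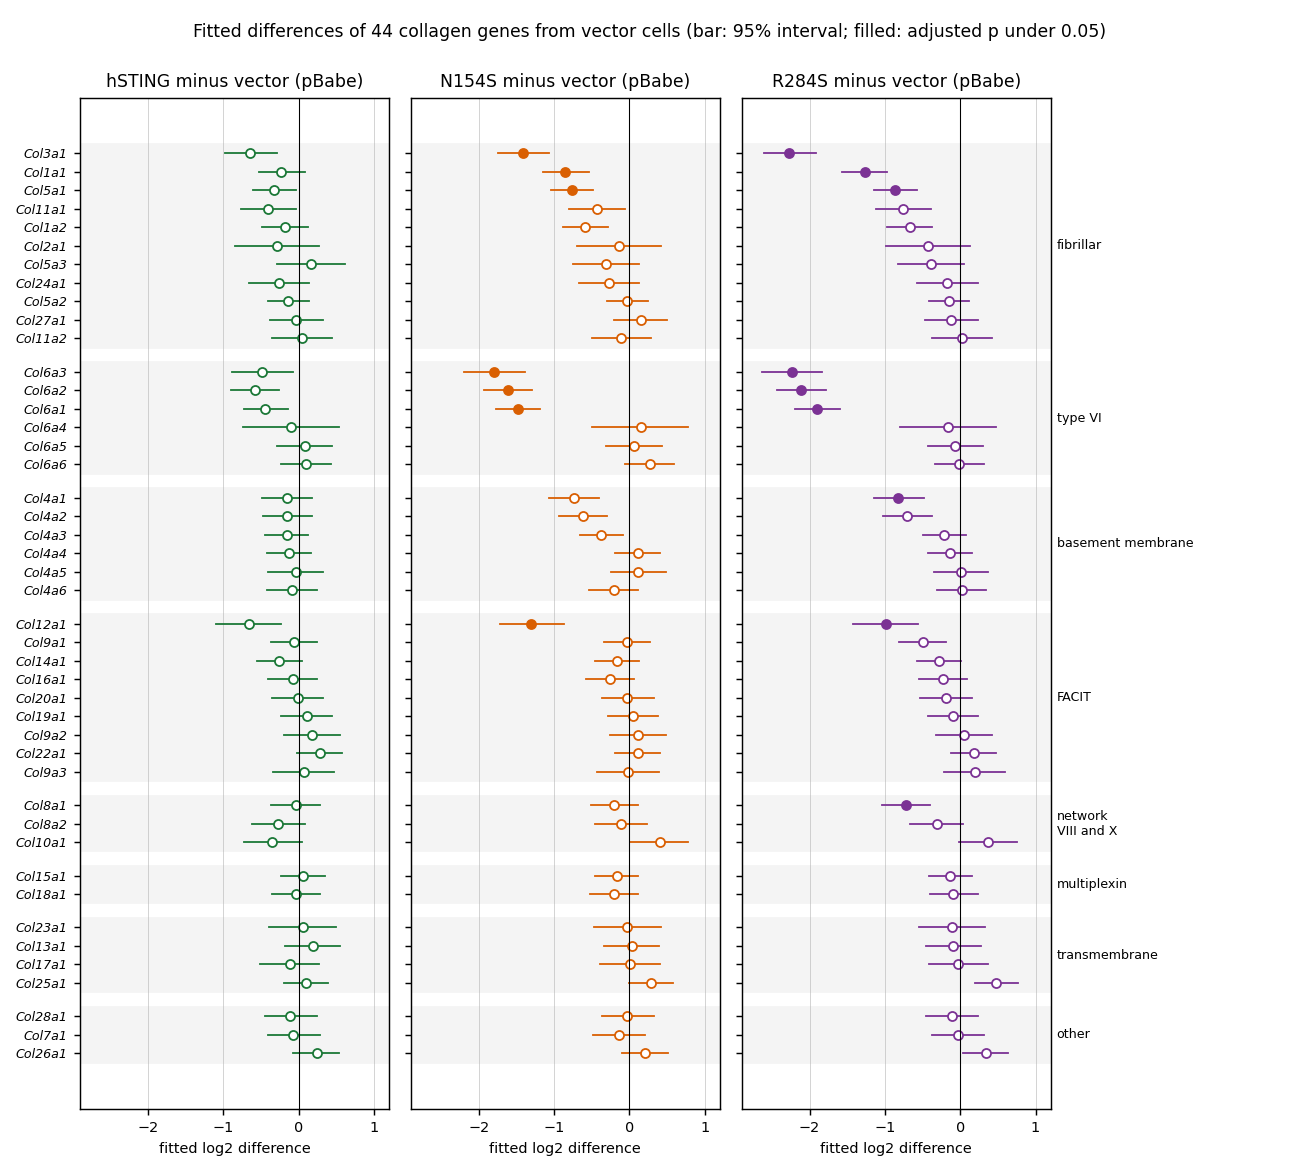
Fitted log2 differences (horizontal axis) of the 44 collagen genes from vector cells, by class, in hSTING, N154S and R284S cells, with 95% intervals from limma and filled points for an adjusted p below 0.05. The filled points all lie left of 0, at 7 genes in N154S and 9 in R284S cells, and the main type VI genes and Col3a1 lie farthest left.

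Among the fibrillar genes, Col3a1 moved most. It encodes the type III chain, which is abundant in extensible tissue and early scar. Its control signal was 9.05 in vector, 8.33 in hSTING, 7.69 in N154S and 6.61 in R284S cells, and with dsDNA it was 8.79, 8.24, 7.33 and 6.70. No array of a line overlapped with those of another line, a separation whose share over all genes was not counted. The lines kept this order with and without dsDNA, as they did for 0.839% of all genes, and the order was looked for after the values had been seen. The fitted difference from vector cells was -2.27 in R284S (SE 0.14, 4.81-fold lower, adjusted p = 0.00187) and -1.41 in N154S (SE 0.14, adjusted p = 0.0101). In hSTING cells it was -0.64, with a 95% interval from -0.98 to -0.29 and an adjusted p of 0.355.

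Of the type I chains, which form the bulk of fibrils in skin and bone, Col1a1 passed and Col1a2 lay just outside the threshold. Col1a1, which gives the α1 chain, read 11.53, 11.33, 10.73 and 10.16 in vector, hSTING, N154S and R284S control cells and 11.36, 11.11, 10.47 and 10.19 with dsDNA. It differed from vector cells by -1.27 in R284S (SE 0.13, 2.41-fold, adjusted p = 0.00633) and by -0.85 in N154S (SE 0.13, adjusted p = 0.0334, and 0.0535 without the R284S arrays). Col1a2, which gives the α2 chain, read 10.82, 10.74, 10.28 and 10.11 in control cells and 10.75, 10.47, 10.12 and 10.12 with dsDNA. Its differences of -0.67 in R284S and -0.59 in N154S did not pass, with adjusted p values of 0.0509 and 0.0878. A second, dimmer probe set of Col1a2 differed by -1.07 and -1.16. Relative to vector cells, the gap Col1a1 minus Col1a2 within an array shifted by -0.05 in hSTING, -0.26 in N154S and -0.60 in R284S cells. These shifts used the brighter Col1a2 probe set and were not tested. They depend on that choice, since the second probe set fell by more than Col1a1 in N154S cells and by less in R284S cells.

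Of the genes for type V collagen, which starts fibrils and limits their width, Col5a1 fell and Col5a2 did not pass. Col5a1 read 9.16, 8.92, 8.43 and 8.28 in vector, hSTING, N154S and R284S control cells and 9.04, 8.64, 8.25 and 8.20 with dsDNA. It differed from vector cells by -0.86 in R284S (SE 0.12, adjusted p = 0.0190, and 0.0682 without the N154S arrays) and by -0.76 in N154S cells (SE 0.12, adjusted p = 0.0365, and 0.0747 without the R284S arrays). A second probe set of Col5a1, with a mean signal of 4.76, differed by -0.33 and 0.05, and on the mean of both the calls were lost at -0.59 (adjusted p = 0.063) and -0.36 (adjusted p = 0.234). Col5a2 read between 9.05 and 9.35 on all 8 arrays, and the lines overlapped. Its difference from vector cells was -0.15 in R284S, with a 95% interval from -0.42 to 0.12, and -0.03 in N154S cells, with an interval from -0.30 to 0.25.

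Col5a2 is the neighbour of Col3a1 on mouse chromosome 1, with no other protein-coding gene starting between them in RefSeq's GRCm38.p6 table. Col3a1 minus Col5a2 within an array was -0.29 in vector, -0.87 in hSTING, -1.66 in N154S and -2.62 in R284S control cells. With dsDNA the same gap was -0.45, -0.87, -1.85 and -2.35. Only the change of such a gap between arrays has a meaning, and it ran in the same order of lines without and with dsDNA. This shift was not tested by itself.

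The other fibrillar genes did not pass. Col11a1, a minor chain of cartilage and fibroblast fibrils, differed by -0.76 in R284S cells (adjusted p = 0.0703) and read 5.15 on both R284S arrays against 5.90 and 5.91 on the vector arrays. Col5a3, a rarer type V chain, read 6.96, 6.74, 6.40 and 6.43 in vector, hSTING, N154S and R284S control cells and 6.83, 7.38, 6.77 and 6.58 with dsDNA. Its highest signal was thus that of hSTING cells with dsDNA. Col24a1, Col27a1, Col2a1 and Col11a2 differed from vector cells by -0.43 to 0.15 over both mutant lines.

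**Figure D2:**
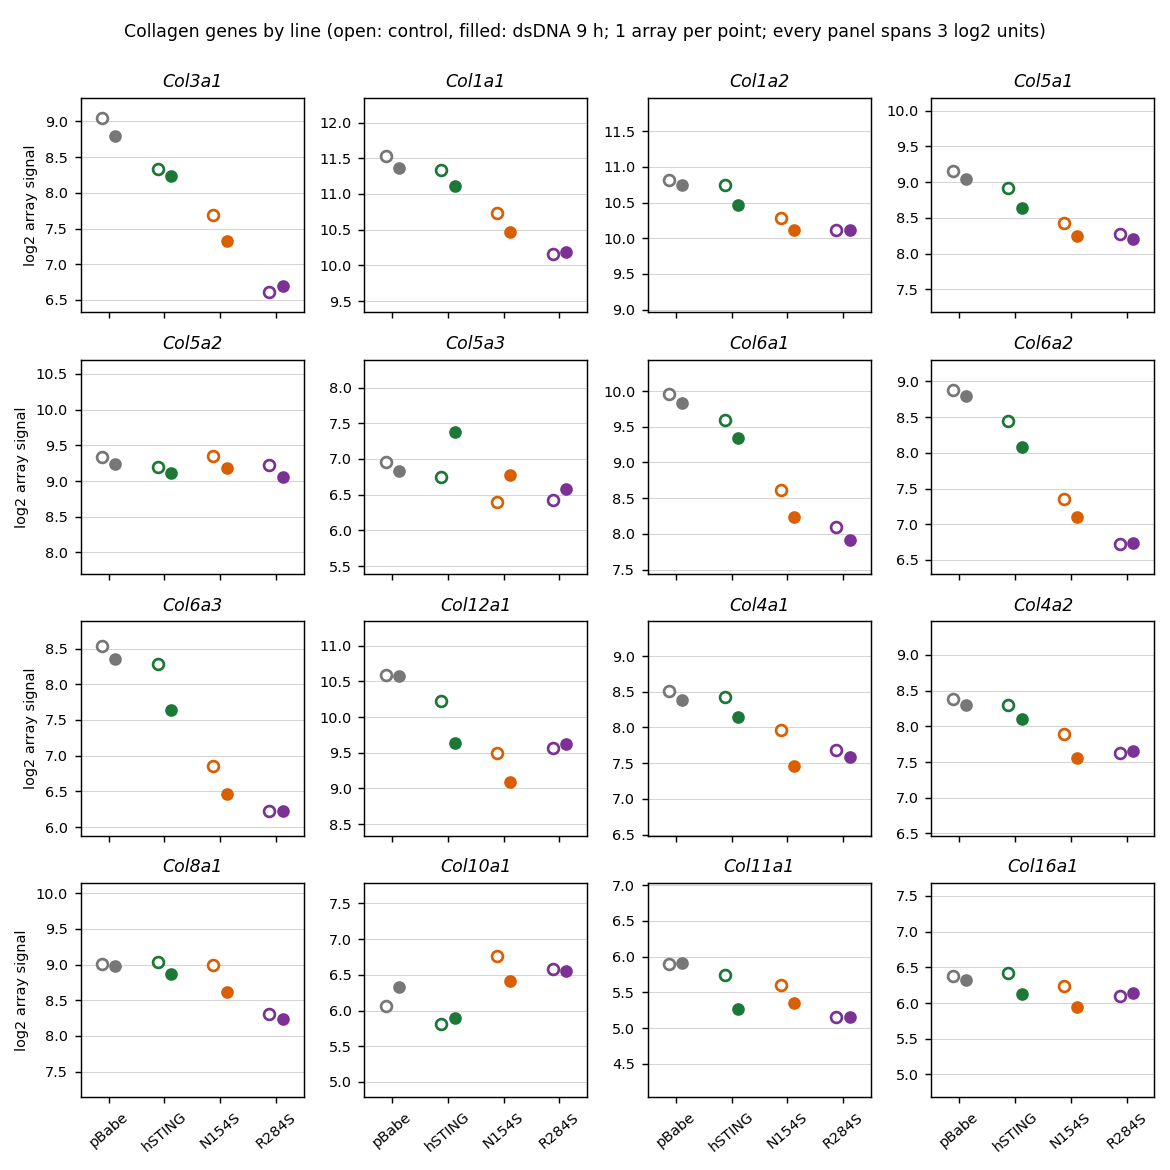
Log2 array signal (vertical axis, 3 units in every panel) of 16 collagen genes in the 4 lines, with open points for control and filled points for dsDNA arrays, 1 array per point. Col3a1, Col6a1, Col6a2 and Col6a3 step down from vector to R284S cells, while Col5a2 stays between 9.05 and 9.35.

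Of the 6 type VI genes, the 3 that encode the classical chains fell and the other 3 read near or below the array median. Col6a1, for the α1 chain, read 9.96, 9.59, 8.61 and 8.09 in vector, hSTING, N154S and R284S control cells and 9.84, 9.34, 8.24 and 7.92 with dsDNA. Col6a2, for the α2 chain, read 8.88, 8.44, 7.36 and 6.73 in control cells and 8.80, 8.08, 7.10 and 6.74 with dsDNA. Col6a3, for the large α3 chain, read 8.54, 8.29, 6.85 and 6.22 in control cells and 8.36, 7.64, 6.46 and 6.22 with dsDNA. For all 3 genes no arrays of different lines overlapped, and vector cells were highest and R284S cells lowest. The share of all genes with such a separation of the lines was not counted, so it is given as values only.

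In R284S against vector cells, Col6a3 differed by -2.23 (SE 0.17, 4.69-fold lower, adjusted p = 0.00263). Col6a2 differed by -2.11 (SE 0.14, 4.30-fold, adjusted p = 0.00187) and Col6a1 by -1.90 (SE 0.12, 3.72-fold, adjusted p = 0.00187). In N154S cells the 3 genes were at -1.80 (SE 0.17, adjusted p = 0.00869), -1.61 (SE 0.14, adjusted p = 0.00616) and -1.48 (SE 0.12, adjusted p = 0.00616). In hSTING cells they were at -0.49, -0.58 and -0.44, and none of these passed, with adjusted p values of 0.506, 0.373 and 0.466. A second probe set of Col6a1 differed by -2.12 in R284S and -1.91 in N154S cells. The other type VI genes, Col6a4, Col6a5 and Col6a6, read between 3.36 and 4.52 on the 8 arrays, and none passed.

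Col6a1 and Col6a2 are neighbours on chromosome 10, while Col6a3 lies on chromosome 1. Within an array, Col6a2 minus Col6a1 stayed between -1.36 and -1.04, a range of 0.32, while Col3a1 minus Col5a2 ranged over 2.33. The 250 bases before the transcription start are shown for the 4 genes that moved most, 5′ to 3′ on the gene's strand, as listed by RefSeq for GRCm38.p6. They lie at chr10:76726045-76726294 (minus strand), chr10:76623631-76623880 (minus strand, the upstream of 2 listed starts), chr1:90843972-90844221 (minus strand) and chr1:45311288-45311537 (plus strand), and capitals mark matches to the motifs named after them. The annotated Col6a3 gene reaches up to position 90844001, so the last bases of its window lie inside the gene.
Col6a1: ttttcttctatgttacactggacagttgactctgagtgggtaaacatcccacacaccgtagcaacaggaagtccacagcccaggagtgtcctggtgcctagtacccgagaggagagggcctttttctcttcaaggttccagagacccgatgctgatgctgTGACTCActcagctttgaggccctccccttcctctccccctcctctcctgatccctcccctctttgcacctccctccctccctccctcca
Col6a2: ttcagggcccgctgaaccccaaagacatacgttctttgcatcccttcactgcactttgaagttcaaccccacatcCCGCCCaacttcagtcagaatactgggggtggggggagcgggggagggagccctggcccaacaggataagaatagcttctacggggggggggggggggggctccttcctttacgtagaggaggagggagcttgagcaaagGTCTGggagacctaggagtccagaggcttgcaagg
Col6a3: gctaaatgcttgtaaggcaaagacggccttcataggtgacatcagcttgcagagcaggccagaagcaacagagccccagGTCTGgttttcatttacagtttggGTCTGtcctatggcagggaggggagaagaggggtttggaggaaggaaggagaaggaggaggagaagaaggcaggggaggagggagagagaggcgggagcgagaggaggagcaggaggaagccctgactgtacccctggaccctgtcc
Col3a1: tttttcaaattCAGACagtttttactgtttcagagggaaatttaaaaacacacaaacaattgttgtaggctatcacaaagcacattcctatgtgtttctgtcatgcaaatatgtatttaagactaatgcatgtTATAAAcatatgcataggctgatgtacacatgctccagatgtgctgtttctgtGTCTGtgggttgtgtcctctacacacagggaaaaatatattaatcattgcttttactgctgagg

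The motifs were searched on both strands, with overlaps between them allowed: the TATA box TATAAA, the CCAAT box, the GC box GGGCGG, the SMAD box CAGAC and the AP-1 site TGANTCA, together with the interferon response core. A window was listed for 35 of the 44 collagen genes and for 7 of the 9 that fell. The SMAD box was present in 5 of these 7, among them Col3a1, Col6a2 and Col6a3, in 42.9% of the 35 collagen windows and in 42.2% of all 27025 windows. A GC box was present in 60% of the collagen windows and 33% of all windows, and in 3 of the 7, Col5a1, Col6a2 and Col8a1. The AP-1 site of Col6a1, starting 90 bases before the start, was the single one in the 35, against 6.85% of all windows. The TATA box of Col3a1 starts 117 bases before the listed start, and TATAAA was present in 14.3% of collagen and 13% of all windows. The interferon response core was present in 0 of the 35 collagen windows and in 3.05% of all windows, and CCAAT in 34.3% and 34.5%. Such matches describe letters in a short window and are neither sites nor causes.

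In the FACIT group Col12a1, a fibril-surface collagen of tendon and stressed tissue, was the gene that passed. It read 10.59, 10.22, 9.49 and 9.57 in vector, hSTING, N154S and R284S control cells and 10.58, 9.63, 9.09 and 9.62 with dsDNA. It differed from vector cells by -1.30 in N154S (SE 0.18, 2.45-fold, adjusted p = 0.0271) and by -0.99 in R284S (SE 0.18, adjusted p = 0.0473). The R284S call was narrow, at an adjusted p of 0.0504 after quantile normalization and 0.122 without the N154S arrays. Its order was not that of the type VI genes, since it read lower in N154S than in R284S cells, without and with dsDNA. Col16a1, also a FACIT collagen, read between 5.94 and 6.42 on the 8 arrays and differed by -0.26 in N154S and -0.23 in R284S cells, with neither passing. The other FACIT gene above the array median on all arrays, Col9a2 of cartilage, read between 5.96 and 6.45 and differed by 0.11 and 0.05.

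The basement membrane pair Col4a1 and Col4a2, which neighbour each other on chromosome 8 and encode the chains of the common type IV network, moved alike. Col4a1 read 8.51, 8.43, 7.96 and 7.68 in vector, hSTING, N154S and R284S control cells and 8.38, 8.15, 7.46 and 7.58 with dsDNA. Col4a2 read 8.39, 8.30, 7.90 and 7.62 in control cells and 8.30, 8.10, 7.55 and 7.66 with dsDNA. For both genes all 4 mutant arrays lay below all 4 arrays of vector and hSTING cells. The share of all genes with such a separation was not counted, so it is given as values only. Col4a1 fell by 0.82 in R284S cells (SE 0.14, adjusted p = 0.0399, and 0.0762 without the N154S arrays), while its -0.74 in N154S cells had an adjusted p of 0.0657. Col4a2 was at -0.71 in R284S and -0.62 in N154S cells, with adjusted p values of 0.0558 and 0.0941. Col4a5, for a chain of kidney and smooth muscle basement membranes, read between 5.42 and 5.82 and differed by 0.01 in R284S cells, with a 95% interval from -0.35 to 0.37. Col4a3, Col4a4 and Col4a6 were dim on all arrays.

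Of the short-chain network collagens, Col8a1, made by vascular and corneal cells among others, was lower in R284S cells. It read 9.01, 9.04, 8.99 and 8.31 in vector, hSTING, N154S and R284S control cells and 8.98, 8.87, 8.61 and 8.24 with dsDNA. The R284S difference from vector cells was -0.72 (SE 0.13, adjusted p = 0.0495, and 0.0557 without the hSTING arrays and 0.099 without the N154S arrays), and the N154S difference was -0.20. The direct difference of R284S from N154S was -0.53 and did not pass (adjusted p = 0.530). Col10a1, the collagen of hypertrophic cartilage, read 6.06, 5.81, 6.76 and 6.58 in control cells and 6.33, 5.89, 6.42 and 6.55 with dsDNA. All 4 mutant arrays were above all 4 others, a separation whose share over all genes was not counted. The differences from vector of 0.40 in N154S and 0.37 in R284S did not pass (adjusted p = 0.324 and 0.370).

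Among the multiplexin, transmembrane and remaining genes 0 of 9 passed in either mutant line. Col25a1, a transmembrane collagen of neurons, read 4.51, 4.65, 4.85 and 4.92 in vector, hSTING, N154S and R284S control cells and 4.56, 4.62, 4.80 and 5.11 with dsDNA. Its R284S difference of 0.48 was the highest of the 44 genes and did not pass (adjusted p = 0.128). All 4 mutant arrays lay above the others, a separation whose share over all genes was not counted. Col26a1 was at 0.34 in R284S cells, with a 95% interval from 0.04 to 0.64 and an adjusted p of 0.290. Col18a1, whose product releases endostatin, read between 5.28 and 5.62 and was at -0.20 in N154S and -0.09 in R284S cells. Col15a1, the other multiplexin, was at -0.17 and -0.13, and Col7a1, of the anchoring fibrils of skin, at -0.14 and -0.03. Col13a1, Col17a1 of hemidesmosomes, Col23a1 and Col28a1 lay between -0.11 and 0.03 over both mutant lines.

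The mutant lines were also set against hSTING cells. In R284S against hSTING cells 5 of 44 collagen genes fell and 0 rose, where 0.442% of all genes fell and 0.509% rose. Col6a3 was at -1.75 (SE 0.17, adjusted p = 0.0105), Col3a1 at -1.63 (SE 0.14, adjusted p = 0.00807) and Col6a2 at -1.53 (SE 0.14, adjusted p = 0.00807). Col6a1 was at -1.46 (SE 0.12, adjusted p = 0.00779) and Col1a1 at -1.05 (SE 0.13, adjusted p = 0.0210). The count became 3 without the N154S arrays, when Col1a1 (adjusted p = 0.084, and 0.0576 without the vector arrays) and Col6a3 (adjusted p = 0.0541) no longer passed, and 11 with trended and robust variances, of which 10 fell and Col10a1 rose.

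In N154S against hSTING cells 0 of 44 collagen genes passed, as did 0 of all genes, and 12 collagen genes had an unadjusted p under 0.05, 11 of them lower, a share of 27.3% beside 8.90% of all genes. Col6a3 was at -1.31 (95% interval from -1.71 to -0.91), Col6a1 at -1.04 and Col6a2 at -1.03, with adjusted p values of 0.107, 0.103 and 0.107. With trended and robust variances 5 genes passed, Col1a1, Col3a1, Col6a1, Col6a2 and Col6a3. Between R284S and N154S cells 0 collagen genes passed, where 0.00451% of all genes were called lower. At an unadjusted p under 0.05 there were 7 collagen genes, all lower in R284S, a share of 15.9% beside 7.07% of all genes. Col3a1 had the largest of these differences, -0.86, with a 95% interval from -1.20 to -0.51 and an adjusted p of 0.367.

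The 6 genes Col1a1, Col3a1, Col5a1, Col6a1, Col6a2 and Col6a3 read highest in vector, then hSTING, then N154S, and lowest in R284S cells on the control arrays and again on the dsDNA arrays. This order was looked for after the values had been seen, and 0.839% of all genes had it. Without replicates of a line the order rests on 1 array at each step.

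Counted by overlap, without a test, both arrays of a line lay below both vector arrays for 15 collagen genes in hSTING, 19 in N154S and 24 in R284S cells, where 19.2%, 22.9% and 22.7% of all genes did. Both lay above for 4, 6 and 4 collagen genes, where 15.4%, 22.5% and 24.1% of all genes did. So the lower side held more of the collagen genes in each line, 24 of 44 in R284S cells.

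In control cells alone, without a test, 5 collagen genes were 2-fold or more lower in N154S than in vector cells, where 0.406% of all genes were, and 6 in R284S, where 0.721% were. With dsDNA the counts were 5 in N154S and 5 in R284S cells, where 0.884% and 0.848% of all genes were. None was 2-fold or more higher in either treatment, where for N154S 1.01% and 1.57% and for R284S 1.15% and 1.13% of all genes were higher without and with dsDNA. In R284S cells Col3a1 had the lowest control difference, -2.44, and with dsDNA Col6a3 had the lowest, -2.14.

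For dsDNA no collagen gene passed. Over the 4 lines 0 of 44 were called for dsDNA against control, as did 0 of all 22180 genes, with 5 collagen genes at an unadjusted p under 0.05. That is 11.4% of them beside 10.8% of all genes, near the background. Of the 5, Col4a1, Col6a1, Col6a3 and Col9a1 were lower, and Col8a2, dim on all arrays, was higher. In no line did any collagen gene differ 2-fold or more. Of all genes, 2.01% were at least 2-fold higher and 0.500% lower in hSTING cells, against 0.149% and 0.0361% in vector, 0.379% and 0.108% in N154S and 0.0271% and 0.0406% in R284S cells.

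The 9 genes that fell in a mutant line all read lower with dsDNA than without it in vector, hSTING and N154S cells, and 4 of the 9 did in R284S cells. Of all 44 collagen genes 28, 29, 26 and 20 read lower with dsDNA in vector, hSTING, N154S and R284S cells, beside 48.4%, 50.5%, 51.6% and 48.0% of all genes. The choice of the 9 genes used the same arrays, and the dsDNA differences in a line have no test. Their differences lay between -0.26 and -0.01 in vector cells, between -0.65 and -0.09 in hSTING cells and between -0.50 and -0.18 in N154S cells. In R284S cells they lay between -0.17 and 0.09. The lowest in hSTING cells were Col6a3 at -0.65 and Col12a1 at -0.59. Col5a3 went the other way there, by 0.64. The dsDNA effect in the 3 STING lines minus that in vector cells passed for 0 of 44 collagen genes and 0 of all genes, with 2 collagen genes, Col23a1 and Col6a4, at an unadjusted p under 0.05, both higher. That share, 4.55%, was near the 3.60% of all genes. For Col5a3 the difference of the dsDNA effects was 0.52, with a 95% interval from -0.12 to 1.15.

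**Figure D3:**
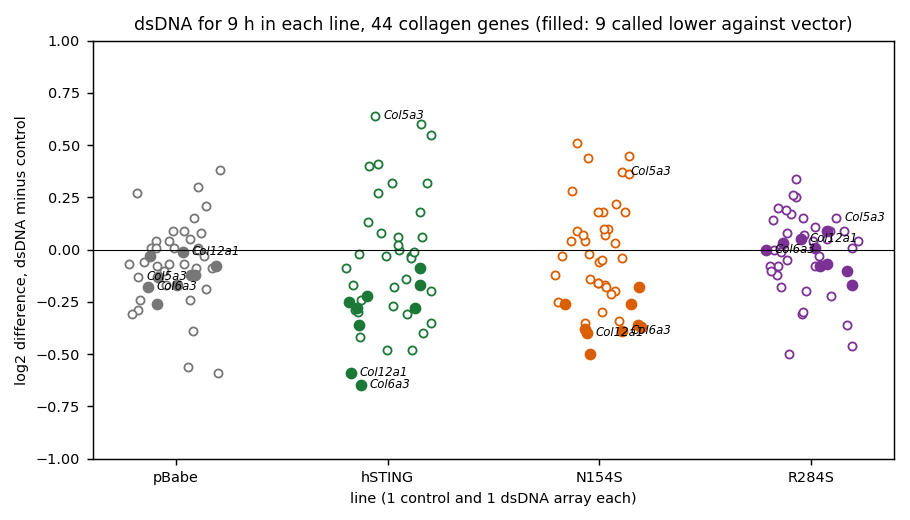
Log2 difference of the dsDNA array minus the control array (vertical axis) for the 44 collagen genes in each line, with filled points for the 9 genes called lower in a mutant line against vector cells. The filled points lie below 0 in vector, hSTING and N154S cells, down to -0.65 for Col6a3 in hSTING cells, and between -0.17 and 0.09 in R284S cells.

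Genes that make, process and bind collagen changed in part, in both directions. Against vector cells 0.609% of all genes fell and 0.708% rose in N154S, and 1.02% fell and 1.02% rose in R284S cells. The median over all genes was 0.01 in both lines. These shares stand beside the counts of each list that follows. Of the 17 measured biosynthesis and folding genes, 1 fell in N154S cells, and 1 fell and 1 rose in R284S cells against vector cells, with medians of -0.22 and -0.19. P4ha3, a prolyl hydroxylase subunit, read 9.48, 9.16, 8.75 and 8.34 in vector, hSTING, N154S and R284S control cells and 9.37, 8.94, 8.52 and 8.07 with dsDNA. It differed from vector cells by -1.22 in R284S (SE 0.12, adjusted p = 0.00594) and -0.79 in N154S cells (adjusted p = 0.0313, and 0.0662 without the R284S arrays). Plod2, the lysyl hydroxylase that prepares telopeptide cross-links, read 8.20, 8.19, 8.71 and 9.29 in control cells and 8.58, 8.30, 8.69 and 9.48 with dsDNA. It rose by 1.0 in R284S cells (SE 0.14, adjusted p = 0.0183, and 0.0575 without the N154S arrays). Serpinh1, which encodes a collagen-specific chaperone, was at -0.51 in R284S cells and did not pass (adjusted p = 0.0987).

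Of 8 secretion genes 1 fell in R284S cells, Creb3l1, an endoplasmic reticulum transcription factor that drives collagen genes in bone. It read 9.06, 8.79, 8.42 and 8.18 in vector, hSTING, N154S and R284S control cells and 8.96, 8.59, 8.36 and 8.08 with dsDNA. Its R284S difference from vector was -0.88 (SE 0.12, adjusted p = 0.0165, and 0.0609 without the N154S arrays). Of 7 measured procollagen processing genes 1 rose in N154S cells, Tll1, a tolloid-like protease that trims procollagen, by 0.75 (adjusted p = 0.0383, and 0.0775 without the R284S arrays). Of the 4 measured cross-linking genes, of the lysyl oxidase family, 0 passed in either mutant line.

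The collagen-binding integrin genes Itga11 and Itga1 fell in both mutant lines. Of 7 measured receptor and uptake genes, 2 fell in N154S and 2 in R284S cells, where 0.609% and 1.02% of all genes fell. The list medians were -0.40 and -0.32, beside 0.01 over all genes. Itga11, the fibroblast receptor for type I collagen, read 9.01, 8.68, 7.79 and 6.88 in vector, hSTING, N154S and R284S control cells and 8.85, 8.43, 7.16 and 6.76 with dsDNA. It differed from vector cells by -2.11 in R284S (SE 0.16, adjusted p = 0.00206) and -1.46 in N154S cells (SE 0.16, adjusted p = 0.0113). Itga1, whose integrin also binds type IV collagen, differed by -1.29 and -1.02 (adjusted p = 0.00750 and 0.0220). Ddr2, a receptor kinase for fibrillar collagen, was at -0.62 in R284S cells and did not pass (adjusted p = 0.0509), and Itga2, for another collagen-binding integrin, was at 0.75 (SE 0.38, adjusted p = 0.449). In R284S against hSTING cells Itga11 differed by -1.74 (adjusted p = 0.00807), Tgfb2 by -1.34 (0.0104) and P4ha3 by -0.85 (0.0309, and 0.0676 and 0.109 without the vector and N154S arrays), while Plod2 differed by 1.14 (0.0202, and 0.0655 without the N154S arrays).

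Of 12 measured TGF-beta genes, 1 fell in N154S and 2 in R284S cells, where 0.609% and 1.02% of all genes fell. The list medians were -0.17 and -0.31, beside 0.01 over all genes. Tgfb2, a TGF-beta ligand, read 6.79, 6.79, 5.78 and 5.36 in vector, hSTING, N154S and R284S control cells and 6.59, 6.58, 5.40 and 5.33 with dsDNA. Vector and hSTING cells were alike here and both mutant lines lay below them, a separation whose share over all genes was not counted. The fitted differences of Tgfb2 from vector were -1.35 in R284S (SE 0.13, adjusted p = 0.00594) and -1.10 in N154S (adjusted p = 0.0151). Tgfb3, another ligand, read 10.21, 9.99, 9.69 and 8.94 in vector, hSTING, N154S and R284S control cells. With dsDNA it read 9.79, 8.94, 8.92 and 8.56, so hSTING and N154S cells were then about as low as R284S control cells. It fell by 1.25 in R284S against vector cells (SE 0.18, adjusted p = 0.0227, and 0.0787 without the N154S arrays). Its dsDNA difference over the lines was -0.66 and did not pass (adjusted p = 0.448). Ccn2, a matricellular gene commonly induced by TGF-beta, read between 11.04 and 11.39 on the 8 arrays and differed by -0.16 in R284S cells.

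Some fibroblast markers outside the collagens fell as well. Of the 8 measured markers 1 fell in N154S cells, Pdgfrb, and 3 in R284S cells, Pdgfrb, Thy1 and the proteoglycan gene Lum, at -0.79, -0.97 and -1.17 (adjusted p = 0.0280, 0.0174 and 0.0063). Of all genes, 0.609% fell in N154S and 1.02% in R284S cells. The 8 markers had a median difference from vector of -0.65 in N154S (range -0.95 to 0.17) and -0.72 in R284S cells (range -1.17 to 0.08). Over all genes it was 0.01 in both. The intermediate filament gene Vim read between 12.52 and 12.80 and the fibronectin gene Fn1 between 11.70 and 12.15. The log2 of the summed linear signal of the 8 markers lay between 13.86 and 14.17 on the 8 arrays. Without and with dsDNA it was 14.14 and 14.17 in vector and 14.06 and 13.94 in hSTING cells. In N154S cells it was 14.01 and 13.86, and in R284S cells 13.95 and 13.91. Such a sum follows mostly the brightest markers, here Vim and Fn1. Summed leukocyte markers lay between 7.21 and 7.40 in vector and hSTING cells and 7.37 and 7.79 in the mutant lines. The part of these shifts in the collagen differences was not tested.

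**Figure D4:**
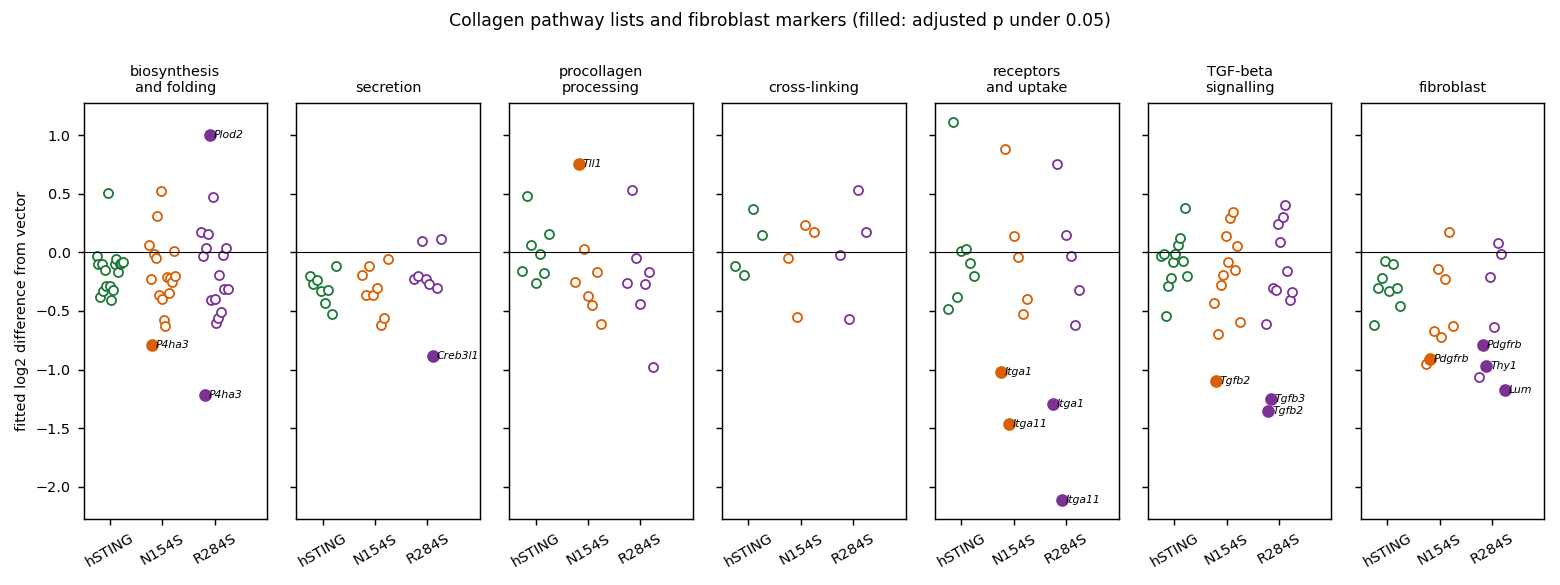
Fitted log2 difference from vector cells (vertical axis) of each measured gene in 6 collagen pathway lists and of the fibroblast markers, in hSTING, N154S and R284S cells, with filled, named points for an adjusted p below 0.05. Itga11 lies lowest at -2.11 in R284S cells, and Plod2 at 1.0 and Tll1 at 0.75 are the filled points above 0.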

How the data were processed

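RNA from 8 cultures, 300 ng each per the labels' protocols, was hybridised to Affymetrix arrays. The submitters' processing notes name Affymetrix Expression Console 1.3.1.187 without its algorithm. Signals were deposited as log2 values for 41345 probe sets, with nearly the same distribution on each array. Platform annotation gave 23521 probe sets 1 symbol, 1814 several (left out) and 16010 none. All 44 collagen genes matched RefSeq's GRCm38.p6 table by identifier.

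The brightest probe set per gene entered limma 3.58.1 in R 4.3.3 (3 residual and 4.03 prior degrees of freedom), and 2 residual degrees of freedom remained for the dsDNA effect in STING lines. On simulated data for R284S against vector cells over 22180 genes, the fit recovered 89 of 100 genes with a log2 change of 1 and 100 of 100 with a change of 2, with 15 false calls. The simulated data held the average dsDNA effect and independent noise, with no uneven dsDNA response and no other difference between lines. They therefore do not show how often the fit calls differences between cell populations that the construct did not cause. Genes were counted 2-fold different where the brighter signal was at or above its array's median. The number of arrays limits the precision. Members, classes, lists and the rule for named genes (all members, and list genes that passed, with others given as values) were chosen with earlier results of these data known. Alternatives were a filter on dim genes, trended and robust variances, quantile normalization, the mean over probe sets and leaving out each line. Some list members were not analysed here.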

Additional observations from a re-analysis of the deposited data

How the results depend on the processing

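The 21 collagen differences and 16 pathway gene differences that passed kept their direction under every alternative run, and 13 of 126 recomputed collagen values and 8 of 96 pathway values no longer passed. Quantile normalization moved the median of all genes by at most 0.02, and under it no count of 2-fold differences between 2 arrays changed. The count of called collagen genes was 5 for N154S against hSTING and 11 for R284S against hSTING with trended and robust variances. Leaving out a line gave 5 to 10 calls for R284S against vector, 3 to 4 for R284S against hSTING and 5 to 7 for N154S against vector. The cause was not tested. With the filter on dim genes the vector comparisons gave 10 in N154S and 12 in R284S cells, where fewer genes were tested. The fit takes a single dsDNA effect averaged over the lines, with line as a term, and tests no dsDNA effect in a single line. No replicate block could be added, since each group has 1 array and the labels carry no replicate numbers.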
